A study of Mus musculus with 9 samples.

Results

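The Eph receptors, their ephrin ligands, the semaphorins and the plexin and neuropilin receptors for semaphorins were followed across 9 arrays of mouse embryonic tissue. Members were taken by gene symbol, as every probe set of the array whose single symbol belongs to the Eph, ephrin, semaphorin or plexin series, together with Nrp1 and Nrp2. This gave 53 genes on 124 probe sets, out of 18193 genes on 34945 probe sets that carry a single symbol. The symbol rule uses no measured value, but the members were chosen with earlier results of these data known. By class they are 9 class A and 4 class B Eph receptors, 5 ephrin-A and 3 ephrin-B ligands, 20 semaphorins, 9 plexins, 2 neuropilins, and Plxna4os1, an antisense transcript that the symbol rule brings in.

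The samples came from mouse embryos at embryonic day 16.5 and form 3 groups of 3 arrays. These are the condyle of the temporomandibular joint, which is the lower-jaw head of the jaw hinge, the fossa, which is the skull socket it moves against, and the whole body as the reference. The labels give laser capture from freshly frozen tissue and the same RNA isolation kit for all 9 samples, and RNA was measured as biotin-labelled cRNA on Affymetrix Mouse 430 2.0 arrays. No genotype, strain, sex or treatment that parts the groups is given, the captured cells are not described further, and the labels call the samples biological triplicates without saying which embryo each came from. The p-values therefore measure the spread between these samples.

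Eph receptors are receptor tyrosine kinases that bind ephrins on a neighbouring cell, and the contact signals into both cells. Ephrin-A ligands are held to the membrane by a lipid anchor and ephrin-B ligands cross it. Semaphorins are secreted or membrane-bound ligands of plexins, and the secreted class uses neuropilins as co-receptors. The families are best known for steering axons and vessels, and in skeletal tissue ephrin-B2, Ephb4, semaphorin 3A and semaphorin 4D are known for signals between bone cells.

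A level is the log2 of the deposited intensity, and a probe set was taken as above background on an array where it exceeded every control probe set for Bacillus transcripts, which mouse RNA should not bind. That limit lay at log2 2.87 to 3.52, and 30.3% to 46.9% of probe sets exceeded it on an array, least on fossa array 1. The 3 prime minus 5 prime difference of the array's control probe sets for Gapdh and Actb, a measure of RNA and cRNA length, was 3.69 to 6.86 and 4.79 to 6.71, with fossa array 1 lowest for both. The mean level of 14 cartilage markers ran from 8.06 to 8.85 on condyle arrays, from 7.43 to 8.92 on fossa arrays and from 5.0 to 5.32 on whole body arrays, and 11 of the 14 were higher in each joint tissue than in whole body. For 7 measured bone markers it was 7.45 to 10.10, 8.35 to 10.18 and 6.56 to 6.67 in the same order. Since tissues are mixtures, fewer cells of a type and less RNA per cell cannot be told apart in any level below.

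Of the 53 members, 27 were above background on all 9 arrays, 20 on some arrays, and 6 on none (Efna4, Epha6, Ephb6, Plxna4os1, Plxnb3 and Sema3f). A moderated F test in limma found a difference among the 3 groups for 14 members, 26.4%, beside 28.1% of all genes. In condyle against whole body 7 members were higher and 0 lower at a Benjamini-Hochberg adjusted p under 0.05 in limma, beside 9.34% of all genes higher and 3.84% lower. At an unadjusted p under 0.05 there were 11 higher and 1 lower, Epha6, which is at background. The share of all genes at that unadjusted threshold was not counted, so these 2 counts have no reference. With quantile normalization 1 member, Epha7, was lower at the adjusted threshold, beside 4.44% of all genes. In fossa against whole body 5 members were higher and 4 lower, beside 3.99% and 15.6% of all genes. In condyle against fossa 6 were higher and 1 lower, beside 16.8% and 2.13% of all genes.

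The share of members called was 13.2% in condyle against whole body, 17% in fossa against whole body and 13.2% in condyle against fossa, close to or below the shares of all genes in those comparisons. The members' median difference was 0.37 in condyle against whole body, where the median of all genes was -0.03. It was 0.01 in fossa against whole body, beside -0.11 over all genes, and 0.51 in condyle against fossa, beside 0.21. After quantile normalization the members' medians were 0.19, 0.09 and 0.03. The direction of calls over all genes moved with the scaling too: 88.8% of all calls there were higher in condyle as deposited and 58.8% after quantile normalization. In fossa against whole body 20.4% of calls were higher as deposited and 47.1% after quantile normalization, and in condyle against whole body 70.9% and 50.5%. In all, 17 members were called in at least 1 contrast, a share that was not counted over all genes. Of these, Efna1, Epha3 and Sema6d did not pass the F test in limma (adjusted p 0.0587, 0.0751 and 0.0522). With all lower values raised to a common floor at the highest background limit, the calls that remained were Ephb3, Nrp2, Plxnb2 and Sema4f in condyle against whole body, Epha7 and Plxnb2 in fossa against whole body, and Ephb3 in condyle against fossa.

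**Figure D1:**
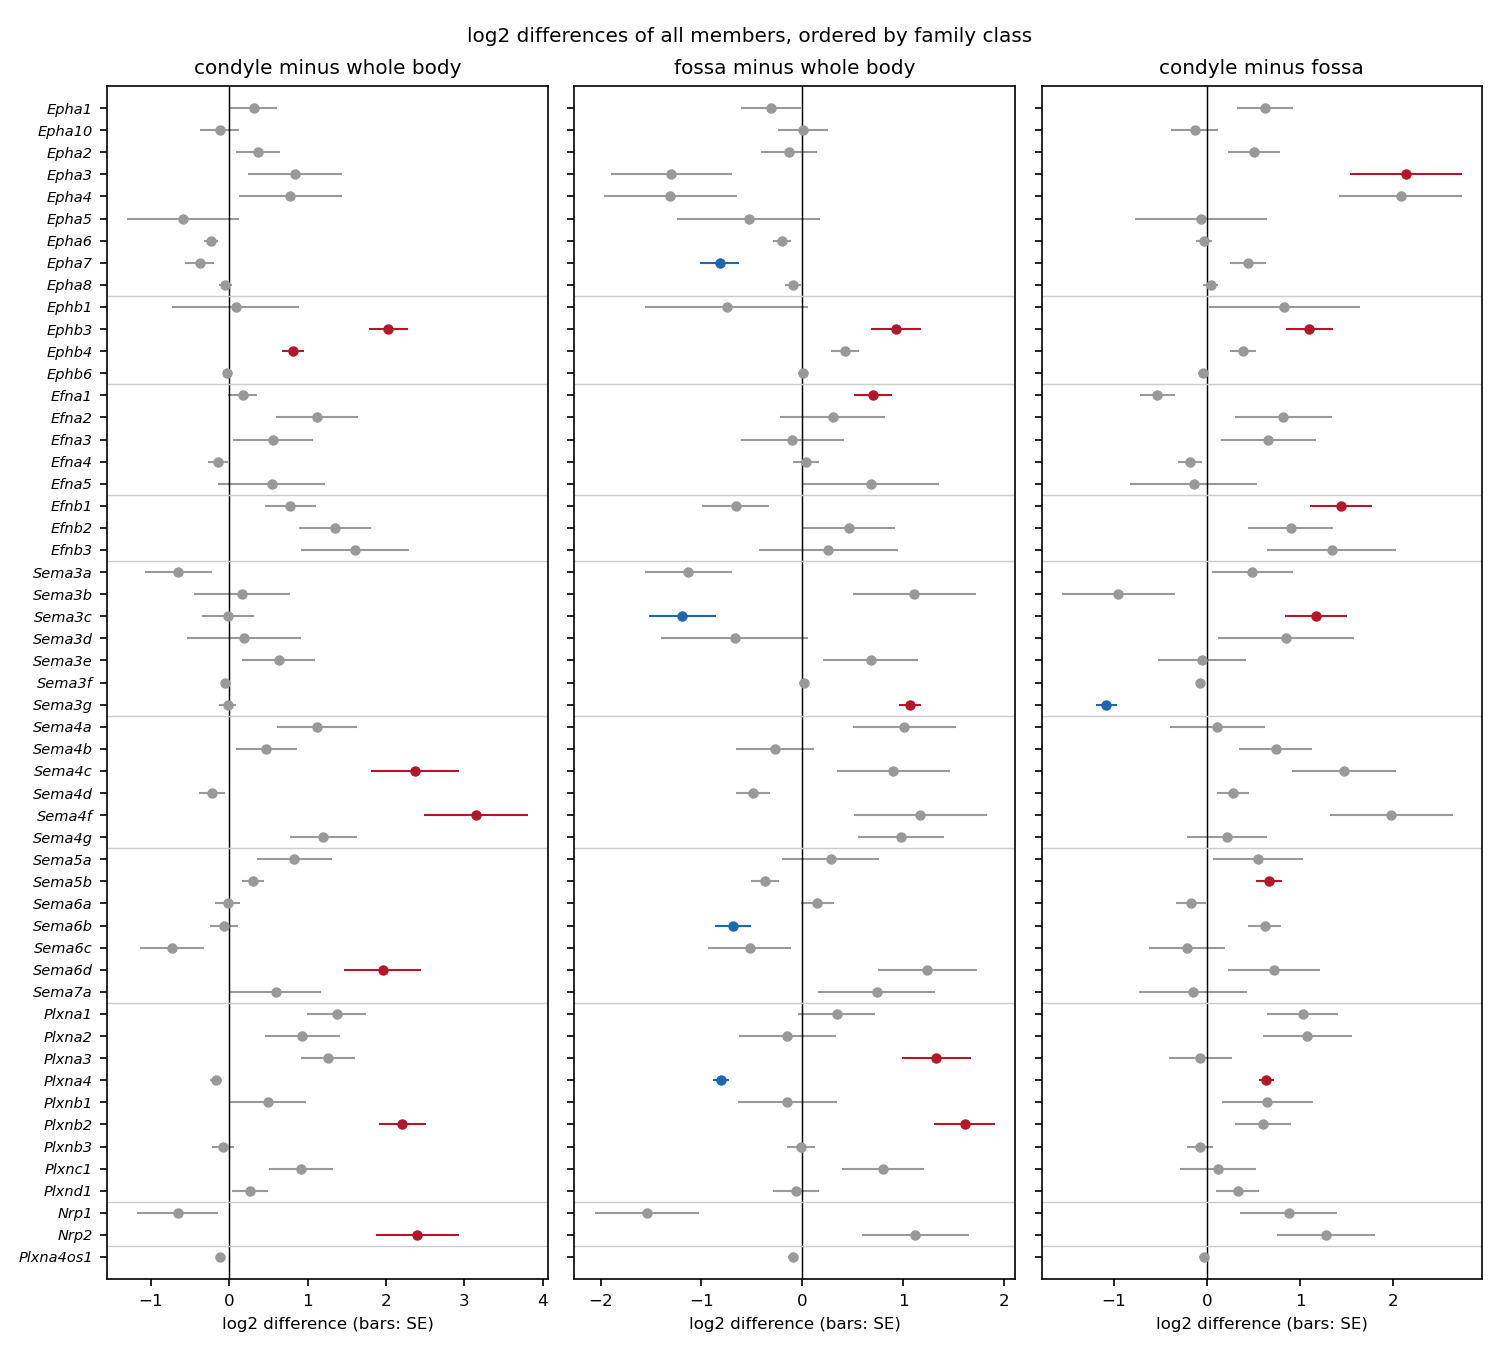
Log2 difference of all 53 members in each of the 3 comparisons. Points are the fitted differences and bars their standard errors, red and blue points are members higher or lower at an adjusted p under 0.05 in limma, and grey points did not pass. In condyle against whole body the 7 coloured points all lie to the right of 0, and in fossa against whole body 5 lie to the right and 4 to the left.

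Beside the probe sets that stand for the genes, 71 other probe sets of members were on the array, and 11 of these, of 10 genes, passed in at least 1 contrast when limma was run over all probe sets. The share of all probe sets that passed in at least 1 contrast was not counted, so the 11 have no reference. The passing probe sets of Epha3, Epha7, Sema4f and Efnb1 are described with the genes. An Epha5 probe set, at 2.53 to 2.61 and at background in fossa, differed from whole body by -1.03 (adjusted p 0.0072), and its levels in whole body were 3.20, 3.88 and 3.76. A Plxnb1 probe set was higher in fossa, at 5.27, 4.50 and 4.52, than in whole body, at 3.33, 3.09 and 3.49, by 1.46 (p 0.0468), where the brighter Plxnb1 probe set gave -0.15. A Sema6a probe set was at background in fossa and whole body and differed in condyle by 0.69 from whole body (p 0.0397) and by 0.68 from fossa (p 0.0252). A pair of Epha4 probe sets, at background on all fossa arrays, differed by -0.68 (p 0.021) and -0.58 (p 0.0289) between fossa and whole body. An Efnb2 and a Sema6d probe set were at background on every array. They differed by 0.23 (p 0.036) and 0.27 (p 0.0281) between fossa and whole body. Between condyle and fossa the differences were -0.34 (p 0.0098) and -0.34 (p 0.0137). These probe sets were chosen after their values were seen.

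The promoters of Ephb3 and Plxnb2, whose calls against whole body in condyle held under every alternative tried, and of Sema3g, called higher in fossa than in both other groups, are shown as the 250 bases before the annotated start, from RefSeq with build GRCm38.p6. Capitals mark the GC box GGGCGG on either strand. Plxnb2 has 2 annotated starts.
Ephb3 chr16:21204545-21204794 (+ strand): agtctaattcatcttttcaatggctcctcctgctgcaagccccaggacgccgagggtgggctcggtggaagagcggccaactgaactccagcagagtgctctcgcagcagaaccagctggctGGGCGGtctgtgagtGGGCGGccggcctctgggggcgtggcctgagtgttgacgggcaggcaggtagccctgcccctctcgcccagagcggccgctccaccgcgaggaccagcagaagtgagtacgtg
Plxnb2 chr15:89173952-89174201 (- strand): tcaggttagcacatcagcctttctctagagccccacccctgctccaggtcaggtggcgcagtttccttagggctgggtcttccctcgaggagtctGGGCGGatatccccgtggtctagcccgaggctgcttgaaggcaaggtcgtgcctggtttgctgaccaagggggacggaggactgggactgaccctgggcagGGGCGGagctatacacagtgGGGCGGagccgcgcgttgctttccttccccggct
Plxnb2 chr15:89180789-89181038 (- strand): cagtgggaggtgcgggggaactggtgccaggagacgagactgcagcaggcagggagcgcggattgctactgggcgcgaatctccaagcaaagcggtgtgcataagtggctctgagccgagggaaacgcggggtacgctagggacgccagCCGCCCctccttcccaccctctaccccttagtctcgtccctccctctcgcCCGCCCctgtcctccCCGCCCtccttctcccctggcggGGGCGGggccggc
Sema3g chr14:31217623-31217872 (+ strand): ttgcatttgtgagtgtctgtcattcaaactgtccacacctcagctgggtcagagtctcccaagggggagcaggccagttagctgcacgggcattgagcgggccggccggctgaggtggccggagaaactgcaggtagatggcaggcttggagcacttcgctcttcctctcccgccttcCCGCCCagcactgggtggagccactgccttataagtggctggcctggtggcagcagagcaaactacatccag

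The GC box occurs 2 times in the Ephb3 window, 3 and 4 times in those of Plxnb2 and 1 time in that of Sema3g. Promoters of 46 of the 53 members were in the table, 60 windows in all, and 76.7% of these held GGGCGG, beside 32.7% of all 32851 windows. CCAAT, searched on both strands, was in 30% of member windows and 33.8% of all. TATAAA was in 1.67% and 12.4%, and AACAAT, a core of the Sox binding motif, in 5% and 9.42%. These shares describe the letters of the windows and the arrays do not bear on factor binding.

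Among Eph receptors, Ephb3, a receptor of ephrin-B ligands, was highest in condyle, intermediate in fossa and lowest in whole body. Its levels were 5.78, 5.61 and 5.21 on the condyle arrays, 4.43, 4.61 and 4.27 on the fossa arrays, and 3.09, 3.42 and 4.0 on the whole body arrays. Every condyle array lay above every fossa array and every fossa array above every whole body array. Group means were 5.53 ± 0.30 (SD, n = 3) for condyle, 4.44 ± 0.17 for fossa and 3.50 ± 0.46 for whole body. Condyle exceeded whole body by 2.03 ± 0.25 (SE) on the log2 scale, 4.09-fold, with a limma adjusted p of 0.00378, which held with each array left out in turn (highest 0.0177). Fossa exceeded whole body by 0.93 ± 0.25, 1.91-fold (adjusted p 0.0415 in limma), a call that held in 2 of the 9 fits with 1 array left out, those without condyle 3 and without whole body 3 (highest p 0.11). Condyle exceeded fossa by 1.10 ± 0.25, 2.14-fold (adjusted p 0.0258), and this was 0.36 with p 0.525 after quantile normalization and lost its call, with p up to 0.0804, without condyle 1, condyle 2, fossa 1 or fossa 3.

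Ephb4, the ephrin-B2 receptor of veins and osteoblasts, was close to background. Its levels were 3.14, 3.36 and 2.87 in condyle, 2.58, 2.94 and 2.68 in fossa, and 2.38, 2.29 and 2.26 in whole body. Every whole body array lay under the background limit and under every condyle array. The condyle difference from whole body was 0.81 ± 0.14 with adjusted p 0.0136 in limma and held with each array left out (highest 0.0466), but no fold is given for a level so near background. The difference was 0.00 with a common floor at the highest limit. Of 13 endothelial markers, 5 were at background in condyle and 6 in whole body, 0 were higher in condyle, and their mean level was 3.08 to 3.88 in condyle and 3.59 to 3.79 in whole body. Of 7 bone markers 1 was higher in condyle, with a median difference of 1.73. The part of either cell type in the Ephb4 level was not tested.

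Of the class A receptors, Epha3, a high-affinity receptor of ephrin-A5, parted the joint tissues. Its levels were 8.14, 8.17 and 8.11 in condyle, 4.40, 6.80 and 6.79 in fossa, and 7.15, 7.40 and 7.34 in whole body. Every condyle array lay above and every fossa array below all whole body arrays. Group means were 8.14 ± 0.03 for condyle, 6.0 ± 1.38 for fossa and 7.30 ± 0.13 for whole body, and condyle exceeded fossa by 2.14 ± 0.60, 4.41-fold (limma adjusted p 0.0485). Epha3 did not pass the limma F test over the 3 groups (adjusted p 0.0751). Fossa array 1 lay lowest, at 4.40, and without it the difference was 1.34 (p 0.00262). The call held in 2 of the 9 fits with 1 array left out, those without fossa 1 and without fossa 2 (highest p 0.117), and the difference was 1.47 with p 0.189 after quantile normalization. Against whole body neither tissue passed with all arrays, with -1.30 in fossa (p 0.181) and 0.84 in condyle (p 0.377). Without fossa 1 both passed, at -0.50 (p 0.0138) and 0.84 (p 0.00253). A further Epha3 probe set differed by -1.91 between fossa and whole body (adjusted p 0.0152 over all probe sets in limma) and by 1.77 between condyle and fossa (p 0.0211), with its condyle and whole body levels overlapping (-0.14, p 0.806).

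Epha7, whose ligands are the ephrins-A, was lower in fossa. Its levels were 5.43, 4.79 and 5.51 in condyle, 4.77, 4.84 and 4.80 in fossa and 5.55, 5.52 and 5.80 in whole body. All fossa arrays lay below all whole body arrays. The difference was -0.82 ± 0.19, 1.77-fold, with adjusted p 0.0231 in limma, and -0.56 with p 0.0677 after quantile normalization. It held in the 3 fits without a condyle array and not in the 6 without a fossa or whole body array (highest p 0.069), and a further Epha7 probe set gave -2.51 with adjusted p 0.045. Epha4, which binds ephrins of both classes, had levels of 5.67, 5.69 and 6.96 in condyle, 2.97, 4.17 and 4.93 in fossa and 4.51, 5.18 and 6.30 in whole body. Its condyle arrays lay above its fossa arrays, but the difference of 2.08 ± 0.66 (at least 3.73-fold, with a fossa array at background) did not pass, with adjusted p 0.0702 in limma. Of the remaining receptors, Ephb1 had levels of 5.39 to 7.42 in condyle, 3.69 to 6.63 in fossa and 6.03 to 6.28 in whole body, and neither it nor Epha1, Epha2, Epha5, Epha8 and Epha10 passed in any contrast by the probe set that stood for the gene.

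Among ephrins, Efnb1, a transmembrane ligand whose loss alters skull and limb skeletal patterning, differed between the joint tissues. Its levels were 7.98, 7.51 and 7.14 in condyle, 5.42, 6.53 and 6.34 in fossa and 7.01, 6.59 and 6.68 in whole body. As for Epha3, the condyle arrays lay above and the fossa arrays below all whole body arrays. The mean was 7.54 ± 0.42 in condyle and 6.10 ± 0.60 in fossa, a difference of 1.44 ± 0.33, 2.72-fold, with adjusted p 0.0258 in limma. It was lost without condyle 1, condyle 2 or fossa 3 (highest p 0.0766), and was 0.75 with p 0.222 after quantile normalization. Its 2 other probe sets did not share the difference. The one above background was flat, at -0.03 between condyle and fossa (adjusted p 0.845 over all probe sets in limma), and the other, at 2.54 to 2.98 and near background, gave -0.36 (p 0.00799). Whether the probe sets read different transcripts was not tested.

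Efnb2, the ligand of Ephb4, had levels of 8.42, 7.94 and 8.84 in condyle, 6.91, 7.39 and 8.22 in fossa and 6.72, 6.58 and 7.85 in whole body. The condyle arrays lay above the whole body arrays, but the difference of 1.35 ± 0.46 had adjusted p 0.107 in limma. Efna1, a ligand of Epha2, had levels of 4.39, 4.40 and 4.84 in fossa, 3.88, 3.83 and 3.81 in whole body and 4.40, 3.81 and 3.81 in condyle. Fossa arrays lay above whole body arrays by 0.70 ± 0.19, 1.63-fold (adjusted p 0.0412 in limma), and this held in 1 of the 9 fits with 1 array left out, that without condyle 1 (highest p 0.112). Efna5 levels were 4.51 to 6.90 in condyle, 5.55 to 6.75 in fossa and 4.86 to 5.93 in whole body, which overlap. Efna2, Efna3 and Efnb3 passed in no contrast, and Efna4 was at background.

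**Figure D2:**
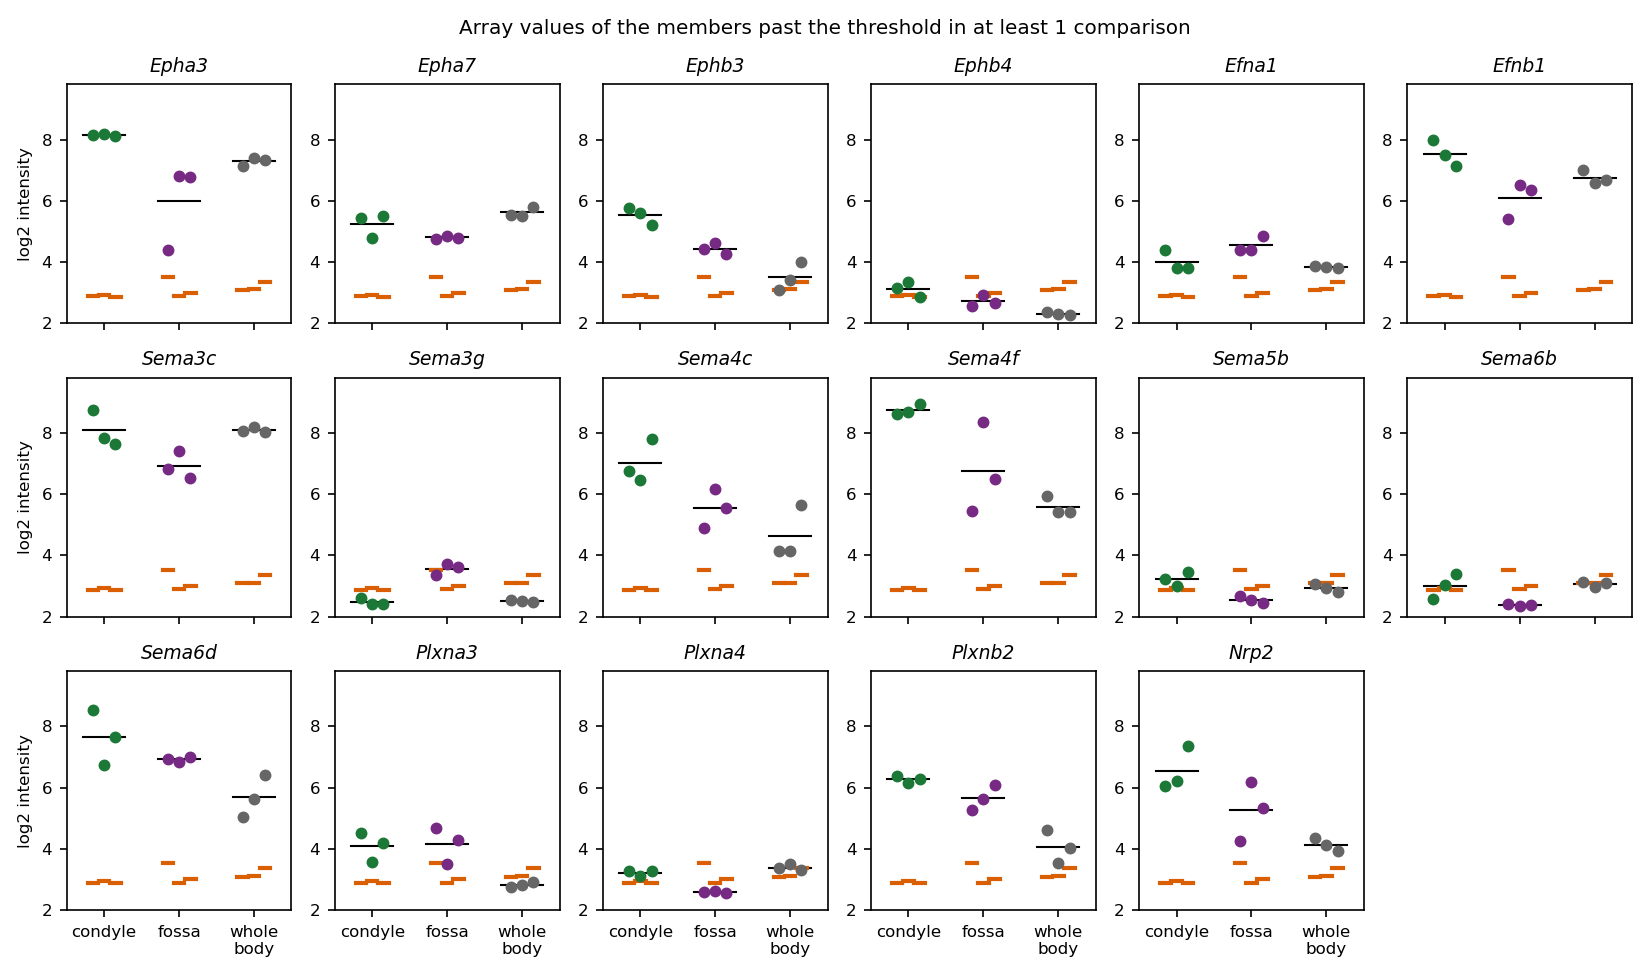
Log2 level of 17 members on each of the 9 arrays, 1 panel per member. Points are single arrays, black lines the group means and orange ticks the background limit of each array. Ephb3 falls from condyle through fossa to whole body without overlap, Epha3 and Efnb1 have the condyle arrays highest and the fossa arrays lowest, and Sema3g exceeds its limit on 2 fossa arrays and on no other array.

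Among the secreted class 3 semaphorins, Sema3g was higher in fossa. Its levels were 3.35, 3.73 and 3.63 in fossa, 2.61, 2.43 and 2.43 in condyle and 2.54, 2.50 and 2.47 in whole body. All condyle and whole body arrays were at background, and 2 of the 3 fossa arrays were above it. The fossa difference was 1.07 ± 0.11 from whole body, at least 1.31-fold (adjusted p 0.00115 in limma), and in the other direction condyle minus fossa was -1.08 ± 0.11, at least 1.60-fold higher in fossa (p 0.00171). Both held with each array left out in turn, with a highest p of 0.00671 and 0.00873, and after quantile normalization. With a common floor at the highest background limit neither passed (adjusted p 0.291 and 0.264).

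Sema3c, known for guiding neural crest and vessel growth, was lower in fossa than in the other groups. Its levels were 8.76, 7.84 and 7.65 in condyle, 6.81, 7.41 and 6.52 in fossa, and 8.08, 8.18 and 8.03 in whole body. Every fossa array lay under every array of the other groups. Fossa minus whole body was -1.19 ± 0.33, 2.28-fold (limma adjusted p 0.0444), and condyle minus fossa 1.17 ± 0.33, 2.26-fold (p 0.0478). The first held in the 3 fits without condyle 1, condyle 3 or fossa 2 (highest p 0.13) and the second in the fit without fossa 2 (highest p 0.132), and neither passed after quantile normalization (p 0.193 and 0.451). Sema3a, the Nrp1 ligand, had levels of 7.25, 7.61 and 7.14 in condyle, 6.11, 7.05 and 7.38 in fossa and 7.46, 7.73 and 8.75 in whole body. Its fossa difference from whole body, -1.13 ± 0.43, had adjusted p 0.11. Sema3d levels were 4.54 to 5.96, 3.87 to 5.40 and 4.08 to 6.58 in condyle, fossa and whole body, Sema3e levels were 4.06 to 4.31, 3.69 to 5.20 and 3.10 to 4.29, and neither passed. Sema3b, which also binds neuropilins, was at 3.98 to 4.41 in condyle, 4.22, 6.63 and 4.68 in fossa and 3.67 to 4.66 in whole body. Its groups overlapped, with fossa array 2 highest, and it passed in no contrast (fossa minus whole body 1.11 ± 0.61, adjusted p 0.254 in limma).

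Of 6 class 4 semaphorins, membrane proteins many of which bind plexins of the B group, 2 were called higher in condyle than in whole body, Sema4f and Sema4c. They are among the 7 members called higher in that comparison, beside 9.34% of all genes. The Sema4f probe set that is highest, whose probes may match other transcripts too, had levels of 8.63, 8.67 and 8.94 in condyle, 5.45, 8.37 and 6.48 in fossa and 5.93, 5.43 and 5.43 in whole body. The condyle arrays lay above the whole body arrays without overlap, and fossa array 2 reached nearly the condyle level. Condyle exceeded whole body by 3.15 ± 0.66, 8.91-fold, with adjusted p 0.0233 in limma, a call kept in the 3 fits without a fossa array and lost in the 6 others (highest p 0.0721). The other Sema4f probe set had levels of 5.01, 4.22 and 4.73 in condyle, 2.50, 2.51 and 2.51 in fossa, and 4.24, 4.02 and 4.14 in whole body. There fossa was at background on every array and differed from whole body by -1.63 (adjusted p 0.00186 over all probe sets in limma), and condyle exceeded it by 2.15 (p 0.000949), whereas the condyle and whole body levels were nearer, at a difference of 0.52 (p 0.149). For the highest probe set condyle minus fossa was 1.98 (p 0.0794) and fossa minus whole body 1.17 (p 0.264), and neither passed. The condyle against whole body call thus rests on the highest probe set, and the other did not pass there.

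**Figure D3:**
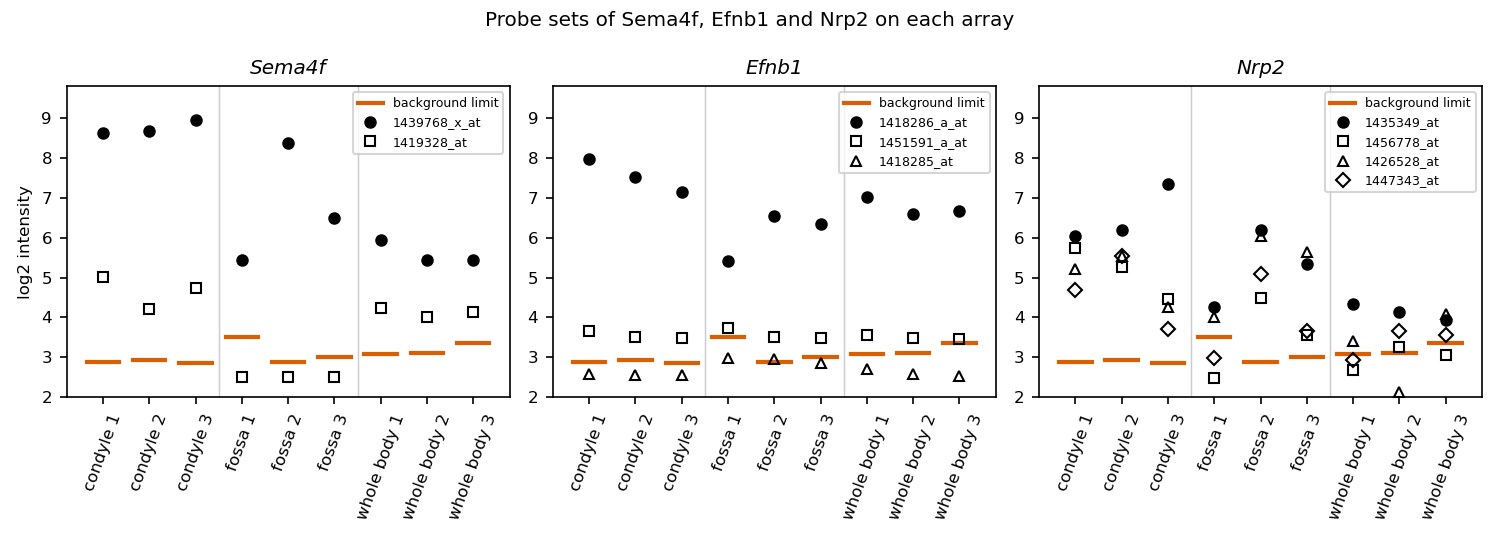
Log2 levels of each probe set of Sema4f, Efnb1 and Nrp2 on each array, with the background limit of each array as an orange tick. Filled points mark the probe set used for the gene. The second Sema4f probe set lies at 2.50 to 2.51 on all fossa arrays, and the second Efnb1 probe set is flat across the groups.

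Sema4c, a ligand of plexin-B2, had levels of 6.77, 6.47 and 7.81 in condyle, 4.90, 6.16 and 5.56 in fossa, and 4.14, 4.13 and 5.66 in whole body. All condyle arrays lay above all others. Condyle exceeded whole body by 2.37 ± 0.56, 5.19-fold (adjusted p 0.0347 in limma), and the call was lost without any 1 condyle array, fossa 3, whole body 1 or whole body 2 (highest p 0.105) and after quantile normalization (p 0.0637). Sema6d, a ligand of plexin-A1, had levels of 8.53, 6.74 and 7.66 in condyle, 6.93, 6.85 and 7.0 in fossa and 5.04, 5.61 and 6.42 in whole body. Condyle exceeded whole body by 1.96 ± 0.49, 3.88-fold (adjusted p 0.0432), a call that held without condyle 2 or whole body 3 and in none of the other fits with 1 array left out (highest p 0.117), nor after quantile normalization (p 0.0909). In fossa, all 3 arrays lay above those of whole body too, but the difference of 1.24 ± 0.49 had adjusted p 0.128.

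Near background, Sema5b had levels of 3.23, 3.01 and 3.46 in condyle, 2.68, 2.55 and 2.45 in fossa and 3.08, 2.93 and 2.79 in whole body, with condyle above fossa without overlap by 0.67 ± 0.14, at least 1.07-fold (limma adjusted p 0.0165). This was lost without condyle 1 or fossa 3 (highest p 0.0541). Sema6b had levels of 2.41, 2.36 and 2.37 in fossa, all at background, and 3.14, 2.98 and 3.10 in whole body, where 1 array was above its limit, a difference of -0.69 ± 0.18 (adjusted p 0.0403) that held without condyle 1 or condyle 3 and in none of the other fits with 1 array left out (highest p 0.105). No fold is given because its bound lay under 1. Of the other semaphorins of these classes, Sema4a, Sema4b, Sema4d, Sema4g, Sema5a, Sema6a, Sema6c and Sema7a passed in no contrast by the probe set that stood for the gene.

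Of the plexins, Plxnb2 was higher in both joint tissues. Plexin-B2 is a receptor of class 4 semaphorins. Its levels were 6.38, 6.15 and 6.28 in condyle, 5.28, 5.64 and 6.08 in fossa and 4.62, 3.55 and 4.01 in whole body. All joint arrays lay above all whole body arrays. Plxnb2 averaged 6.27 ± 0.11 for condyle, 5.67 ± 0.40 for fossa and 4.06 ± 0.54 for whole body. The difference from whole body was 2.21 ± 0.30, 4.64-fold, in condyle (adjusted p 0.00501 in limma) and 1.61 ± 0.30, 3.06-fold, in fossa (p 0.0106). Both held in each of the 10 processing alternatives and with each array left out, with a highest p of 0.0226 and 0.0397 over the alternatives. Condyle and fossa did not differ at the threshold, by 0.60 with p 0.209 as deposited and by -0.15 with p 0.868 after quantile normalization.

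Plxna4, a co-receptor for Sema3a, was lowest in fossa. Its levels were 3.28, 3.11 and 3.27 in condyle, 2.58, 2.61 and 2.54 in fossa and 3.36, 3.49 and 3.30 in whole body, with every fossa array at background and below all others. Fossa minus whole body was -0.81 ± 0.08, at least 1.19-fold (limma adjusted p 0.000833), and condyle minus fossa 0.64 ± 0.08, at least 1.06-fold (p 0.00287). Both held with each array left out and after quantile normalization, and neither was called with a common floor. Plxna3, another plexin of the neuropilin complexes, had levels of 4.69, 3.50 and 4.29 in fossa, 4.50, 3.58 and 4.18 in condyle and 2.75, 2.81 and 2.92 in whole body, where all arrays were at background. Fossa exceeded whole body by 1.33 ± 0.34, at least 1.96-fold (adjusted p 0.0326), a call that held without condyle 1, condyle 2 or fossa 2 and in none of the other fits with 1 array left out (highest p 0.097). In condyle the difference of 1.26 ± 0.34 stood at adjusted p 0.0519. Plxna1 differed by 1.37 ± 0.38 between condyle and whole body with adjusted p 0.0573, and Plxnd1, the receptor of semaphorin 3E, was at 2.78 to 3.51 in condyle, 2.42 to 3.12 in fossa and 2.81 to 2.84 in whole body. The other plexins Plxna2, Plxnb1 and Plxnc1 passed in no contrast by the probe set that stood for the gene, and Plxnb3 was at background.

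Of the neuropilins, Nrp2 was higher in condyle. It is the co-receptor for semaphorins 3C and 3F. Its levels were 6.05, 6.20 and 7.35 in condyle, 4.27, 6.18 and 5.33 in fossa and 4.34, 4.13 and 3.94 in whole body. Condyle arrays lay above whole body arrays, and the fossa arrays reached from the whole body to the condyle level. The condyle difference from whole body was 2.40 ± 0.53, 5.27-fold (limma adjusted p 0.0272), and the differences of the other 3 probe sets, 2.16, 1.79 and 1.27, did not pass (p 0.0572, 0.181 and 0.265 over all probe sets). The call held in the 3 fits without a fossa array and was lost without any 1 condyle or whole body array (highest p 0.0767) and after quantile normalization (p 0.0604). Nrp1, the co-receptor of semaphorin 3A and of vascular endothelial growth factor, had levels of 8.87, 7.39 and 9.40 in condyle, 7.07, 8.25 and 7.69 in fossa and 9.07, 9.26 and 9.30 in whole body. Every fossa array lay below every whole body array, but the difference of -1.54 ± 0.52 had adjusted p 0.0827 in limma. Neuron markers varied within groups: the mean of 15 was 6.77, 4.95 and 7.38 on the condyle arrays, 4.96, 7.09 and 6.18 on the fossa arrays, and 6.17 to 6.25 in whole body, and 0 of the 15 passed in any contrast. Nrp1 was likewise lowest on condyle 2 among condyle arrays and on fossa 1 among fossa arrays. The same lows were found for endothelial markers (3.08 and 3.25), skeletal muscle markers (4.58 and 5.24) and bone markers (7.45 and 8.35). The other marker lists did not have both lows there. Macrophage and Schwann cell markers were lowest on condyle 2, but on fossa 3 (4.68 and 4.78) rather than fossa 1 (4.69 and 4.83). Both lows were also found for the mean of all 53 members (4.67 and 4.10) and of the 58 signalling partners described below (6.37 and 5.78). Condyle 2 and fossa 1 had the smallest shares of probe sets above background in their groups, 45.4% and 30.3%. Whether neural or other cells contribute to the Nrp1 level was not tested.

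Beyond the ligands and receptors, 58 of 60 listed signalling partners were measured. In condyle against whole body 8 were higher and 3 lower, in fossa against whole body 3 higher and 8 lower, and in condyle against fossa 9 higher and 1 lower, with median differences of 0.51, 0.01 and 0.61. As shares these were 13.8% and 5.17%, 5.17% and 13.8%, and 15.5% and 1.72%, beside 9.34% and 3.84%, 3.99% and 15.6%, and 16.8% and 2.13% of all genes. After quantile normalization the counts were 4 and 4, 7 and 5, and 0 and 3, and the medians 0.31, 0.25 and 0.01. Farp2, an exchange factor for Rac that binds plexin-A1, was higher in condyle by 2.88 ± 0.53 (limma adjusted p 0.0153) and in fossa by 3.68 ± 0.53 (p 0.0043) than in whole body, and after quantile normalization by 2.58 (p 0.0323) and 4.17 (p 0.00399). Abl1, a kinase of the cytoskeleton downstream of Eph receptors, was higher in condyle by 2.52 ± 0.29 (p 0.00283). Farp1 was higher there by 1.83 ± 0.27 (p 0.00695), Abl2 by 1.45 ± 0.28 (p 0.0172) and Ryk by 1.45 ± 0.38 (p 0.0492), and the last 2 did not pass after quantile normalization.

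Rap1a, the small GTPase on which plexins act, differed from whole body by -1.76 ± 0.17 in condyle (limma adjusted p 0.00169) and by -2.11 ± 0.17 in fossa (p 0.000495), and by -1.83 and -1.52 after quantile normalization. In fossa Sdcbp, a PDZ protein that binds ephrin-B tails, differed from whole body by -2.76 ± 0.45 (p 0.0066) and Adam10, the protease that cuts ephrins, by -1.54 ± 0.25 (p 0.0067), and both passed after quantile normalization. Rock1, a kinase of the contractile response, differed from whole body by -1.43 ± 0.12 (p 0.000582) in fossa and by -0.96 ± 0.12 (p 0.00419) in condyle. Both passed after quantile normalization, at -0.89 (p 0.00492) and -1.11 (p 0.00359). Met, a partner of plexin-B1, differed by -1.77 ± 0.45 (p 0.0346) and did not pass after quantile normalization. Between condyle and fossa, Abl1 differed by 1.59 ± 0.29 (p 0.0122), Farp1 by 1.17 ± 0.27 (p 0.0258), Cdc42 by 1.15 ± 0.22 (p 0.0139), Grb10 by 1.03 ± 0.23 (p 0.0242) and Limk2 by 1.00 ± 0.18 (p 0.0123), all higher in condyle as deposited and none past the threshold after quantile normalization. Ngef, near background, was higher in fossa, with a condyle minus fossa difference of -1.02 ± 0.25 (p 0.0317), and of -1.25 (p 0.034) after quantile normalization.

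Markers of the other cell types that the captured tissue could hold gave the following levels. Epithelium markers (12 genes) averaged 7.22 to 8.08 in condyle, 4.52 to 7.58 in fossa and 6.65 to 6.78 in whole body, and the fossa low was fossa array 2. Skeletal muscle markers (11) averaged 4.58 to 6.60, 5.24 to 6.83 and 7.04 to 7.20. Macrophage and leukocyte markers (12) averaged 4.01 to 5.72, 4.68 to 5.18 and 5.65 to 5.76. Erythroid (9) and liver (10) markers were higher in whole body, at 7.66 to 7.97 and 10.76 to 11.13, than in condyle, at 3.99 to 4.25 and 3.61 to 4.03. The part of these cell types in the differences of the members was not tested.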

How the data were processed

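RNA of 3 condyle, 3 fossa and 3 whole body samples was measured on Affymetrix arrays. The file holds linear intensities as deposited, with a column for each array. Per the submitters' processing notes limma was used, with no version or role, and the authors' background correction, normalization and probe summary are not stated there. Log2 was taken after raising any value under 1 to 1. Probe sets with 1 gene symbol in the platform annotation were used, and the probe set brightest on average across the 9 arrays stood for its gene. Each array's background limit is the top value among its 27 Bacillus control probe sets. Where the dimmer group had arrays at or under the limit, folds are given as "at least", with the limit in place of lower values, and none is given where the bound was under 1 or both groups were at background.

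Genes were fitted with limma 3.58.1 in R 4.3.3 (lmFit and eBayes, 9 arrays, 3 groups, 6 residual and 1.12 prior degrees of freedom), with Benjamini-Hochberg adjustment over 18193 genes and a threshold of 0.05. SE is from the fit and SD over 3 arrays, whose number limits the precision. The limma fit of condyle against whole body was tried on simulated data with known shifts added to some genes. The other contrasts, the F test, the member counts and the background rule were not tried in this way. Replicate numbers in the labels were not taken as pairs: same-numbered condyle and fossa arrays correlated at -0.332, -0.435 and 0.146 in their deviations from the group means. Every member is accounted for by class. Values on every array are given for members past the threshold without overlap and above background in the higher group, and for a set of members always described. Sema3b, Sema3g, Sema6b and the second probe sets fall outside this and were chosen after their values were seen. Of the signalling list at most 6 genes per contrast are named, by absolute difference. The condyle against whole body difference of Rock1 is given beside these. The members and lists were chosen with earlier results of these data known. Promoter windows were taken from a RefSeq table for 46 of the members and show the letters before the start. The alternatives tried were quantile normalization, centring on the median, a common floor, log2(value + 16), leaving out genes at background, averaging probe sets, all probe sets in the fit, limma's trend and robust options, fits of 2 groups, a replicate block and each array left out. Quantile normalization of the signalling list was added after the data were seen.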

Additional observations from a re-analysis of the deposited data

Results flagged for a closer look

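Efnb1 and Epha3 stood apart because every condyle array lay above and every fossa array below all whole body arrays, among members called between condyle and fossa. That difference was 1.44 for Efnb1 (adjusted p 0.0258 in limma) and 2.14 for Epha3 (p 0.0485), and since it chose the genes it is no test of the pattern. Against whole body with all arrays, Efnb1 differed by 0.78 in condyle (p 0.178) and by -0.66 in fossa (p 0.217), and Epha3 by 0.84 (p 0.377) and -1.30 (p 0.181), and none passed. Without fossa 1, Epha3 passed in both, at 0.84 (p 0.00253) and -0.50 (p 0.0138). The other probe sets of Efnb1 did not share the pattern. One further Epha3 probe set shared the low fossa level. It differed by -1.91 between fossa and whole body (adjusted p 0.0152 over all probe sets in limma) and by 1.77 between condyle and fossa (p 0.0211). Its condyle minus whole body difference was -0.14, so it did not share the high condyle level. The remaining Epha3 probe sets, at -0.04 and -0.20 there, were at or near background and do not bear on the pattern.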

How the results depend on the processing

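As deposited, 7 members were higher and 0 lower in condyle against whole body, 5 and 4 in fossa against whole body, and 6 and 1 in condyle against fossa, and 14 differed among the groups in limma. Quantile normalization gave 4 higher and 1 lower in condyle against whole body, 2 lower in fossa against whole body, 2 higher and 2 lower in condyle against fossa, and 9 by the F test. The shares of all genes were 4.53% and 4.44%, 9.02%, 3.8% and 2.67%, and 17.3%, in that order. A common floor gave 4 higher in condyle against whole body, 1 higher and 1 lower in fossa against whole body, 1 higher and 0 lower in condyle against fossa, and 2 by the F test. Shares of all genes with that floor were 7.24%, 1.8% and 8.61%, 9.79% and 0.225%, and 16.6%. In fossa against whole body, log2(value + 16) gave 2 higher and 2 lower and centring 1 lower, while averaging probe sets, trend and robust options and the fit of 2 groups gave 3 higher each. For these the shares of all genes were 3.15% and 13.5%, 11.2%, and 3.47%, 4.91% and 2.95%. The fit of 2 groups gave 3 higher in condyle against fossa, beside 15.5% of all genes. With all probe sets in the fit the condyle against fossa calls of Epha3 (adjusted p 0.0534 in limma) and Sema3c (p 0.0519) were lost. The cause of these moves was not tested. With the common floor the Ephb4 difference between condyle and whole body became 0.00. Some calls were also lost where the difference did not change. Examples in condyle against fossa are Efnb1 at 1.44 and Epha3 at 2.14 (adjusted p 0.0522 and 0.0928 in limma). Another is Efna1 in fossa against whole body, at 0.70 (p 0.0793). With 1 array left out, counts ranged from 3 to 8 higher and 0 to 0 lower in condyle against whole body, 2 to 4 higher and 1 to 4 lower in fossa against whole body, 1 to 8 higher and 1 to 2 lower in condyle against fossa, and 6 to 11 by the F test. In the same order, shares of all genes were 5.38% to 10.3% and 2.44% to 3.99%, then 2.57% to 3.75% and 10.3% to 14.7%. The last were 10.4% to 16.7% and 1.02% to 2.57%, and 19.8% to 25.7% by the F test.

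Same-numbered arrays did not deviate together as a rule, and the numbers were not taken as pairs. With 3 arrays per group this cannot show whether same-numbered samples came from the same embryo. With a replicate block 3 members were higher in fossa against whole body, 3 in condyle against fossa, and 9 differed by the F test, beside 2.98%, 12.6% and 20.5% of all genes.

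Of 42 gene differences, 2 reversed: Sema4f in fossa against whole body was -0.23 (adjusted p 0.689) with probe sets averaged, and Plxnb2 in condyle against fossa was -0.15 (p 0.868) after quantile normalization, and neither passed as deposited. Of 420 values under alternatives 334 kept direction and side of the threshold, 66 fell short of it and 18 newly passed. Of 378 with 1 array left out these were 280, 89 and 9. Signal over background limits Ephb4, Plxna4, Sema3g, Sema5b and Sema6b, whose differences lie near the limit.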
